A study of Schizosaccharomyces pombe 972h- with 8 samples.

Results

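The expression of 10 autophagy genes of *Schizosaccharomyces pombe*, atg1, atg3, atg4, atg5, atg7, atg8, atg9, atg12, atg13 and isp6, was measured before and after oxidative stress. They were chosen by name from the 4854 genes with a value on both microarray platforms, with earlier results of these data known. A gene was taken where a part of its identifier in the deposited tables equals the name, which found 8 of the 10. The other 2, atg3 and atg7, were found by the systematic names SPBC3B9.06c and SPBC6B1.05c that the ASM294v3 annotation gives them. All 10 had a value on all 8 arrays, and no filter on low values was applied. Cells were of the wild-type strain 972h-, grown in rich yeast extract medium, in 2 cultures from independent single colonies. Control cells were collected before treatment, and H2O2 cells from the same cultures 30 minutes after hydrogen peroxide was added to 0.5 mM. No untreated cells were collected at 30 minutes, so an effect of H2O2 and one of the added time cannot be told apart. RNA of the 4 samples was hybridized to an Affymetrix tiling array and an Affymetrix expression array, whose probes the authors grouped by gene as Sp_TMA and Sp_EMA, so that each group holds 2 arrays per platform. Sp_TMA reads a gene from its own strand, while the double-stranded target of Sp_EMA does not separate strands. Values are of whole cultures, so a change in some of the cells and a change in every cell cannot be told apart.

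Autophagy encloses cytoplasm in a double membrane, the autophagosome, which fuses with the vacuole, where the content is degraded and its building blocks are recovered. The kinase Atg1 with its partner Atg13 starts the process, Atg9 brings in membrane, and a pair of ubiquitin-like proteins, Atg8 and Atg12, are joined to a lipid and to Atg5 by enzymes related to those of ubiquitin. In fission yeast autophagy is best known as a response to nitrogen starvation, and vacuolar proteases such as Isp6 carry out the last step.

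The 250 bases before the annotated start of each gene were searched on both strands for 4 motifs: TGACGT, the core of the site of the stress factor Atf1, CCCCT, the stress response element, GATAAG, the site of GATA factors, and TTCTTTGTT, the core of the site of Ste11. GATAAG was found before atg4 and atg8, and in 10.3% of the 4842 promoters of the same length. CCCCT was found before atg9 and in 8.22% of all promoters. The window of atg9 overlaps the annotated coding gene SPBC15D4.08c of the same strand. That of atg8 overlaps the non-coding RNA gene SPNCRNA.6234 of the other strand. TGACGT and TTCTTTGTT were before none of the 10 genes, and before 5.51% and 1.63% of all. Each of these 3 promoters holds a single match, and a match is a description of the letters and not of a bound site. The promoters of atg4 and atg13, the genes with the largest changes on both platforms, and of atg8 are shown from the ASM294v3 sequence of RefSeq, 5′ to 3′ on the strand of the gene, with GATAAG in capitals, which lies on the other strand and reads CTTATC here, 30 bases before the start of atg4 and 68 before that of atg8. The window of atg13 holds none of the 4 motifs.
atg4, chrI:4897770-4898019, forward strand: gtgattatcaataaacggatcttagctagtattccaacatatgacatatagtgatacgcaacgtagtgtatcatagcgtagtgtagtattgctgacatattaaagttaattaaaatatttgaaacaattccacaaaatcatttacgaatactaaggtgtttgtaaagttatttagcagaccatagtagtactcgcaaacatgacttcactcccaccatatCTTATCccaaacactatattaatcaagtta
atg8, chrII:3685371-3685620, reverse strand: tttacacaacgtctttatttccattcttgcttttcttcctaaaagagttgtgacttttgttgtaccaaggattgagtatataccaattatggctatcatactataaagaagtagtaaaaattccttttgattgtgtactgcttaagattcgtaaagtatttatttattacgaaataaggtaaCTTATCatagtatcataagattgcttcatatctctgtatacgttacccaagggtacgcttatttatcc
atg13, chrI:4843604-4843853, reverse strand: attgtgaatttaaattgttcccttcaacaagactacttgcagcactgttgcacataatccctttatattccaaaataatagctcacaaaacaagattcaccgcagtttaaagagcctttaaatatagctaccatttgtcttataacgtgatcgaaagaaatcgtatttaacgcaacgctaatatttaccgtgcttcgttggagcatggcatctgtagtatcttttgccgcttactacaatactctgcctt

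Under oxidative stress 9 of the 10 autophagy genes rose and 1, atg12, fell, on both platforms. The threshold was an adjusted p below 0.05 from limma, two-sided, with Benjamini-Hochberg adjustment over all 4854 genes. Of all genes, 25.2% were called higher and 31.3% lower on Sp_TMA, and 22.7% and 36.2% on Sp_EMA. Calls as higher on both platforms were made for 19.8% of all genes and as lower on both for 27% of them. The rises ran from 1.33-fold to 2.46-fold on Sp_TMA and from 1.20-fold to 3.20-fold on Sp_EMA. The median change of the 10 genes was 0.69 (log2) on Sp_TMA and 0.61 on Sp_EMA, beside medians over all genes of -0.05 and -0.07. At least 2-fold rises were measured for 3 of the 10 on each platform, atg4 and atg13 on both, isp6 on Sp_TMA and atg3 on Sp_EMA, while 6.32% of all genes rose so far on Sp_TMA and 5.36% on Sp_EMA. Standard errors of the changes lay between 0.07 and 0.13 on Sp_TMA and between 0.05 and 0.14 on Sp_EMA.

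**Figure D1:**
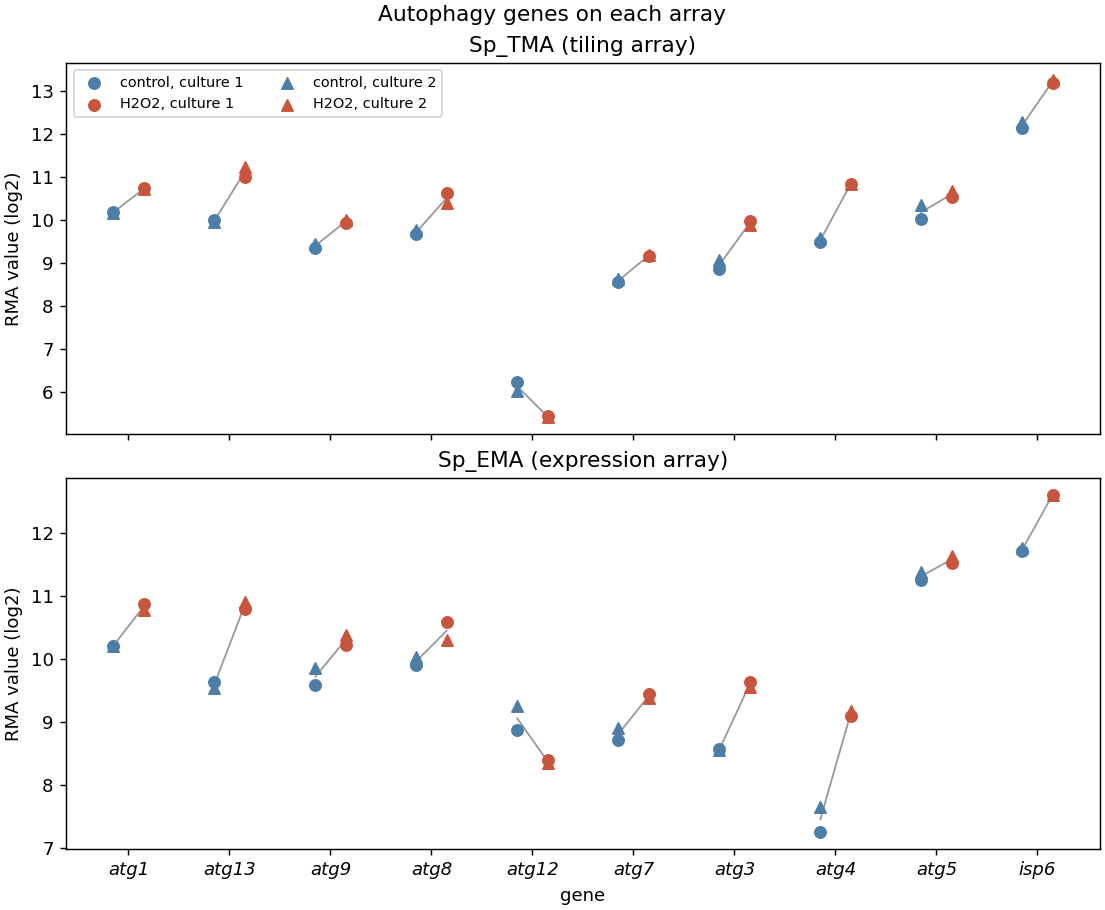
RMA value (log2) of each autophagy gene on each array, by platform, with control cells in blue, H2O2 cells in red, circles for culture 1, triangles for culture 2 and a line between the group means. In 9 of the 10 genes both H2O2 arrays lie above both control arrays on each platform, and in atg12 they lie below. Levels of different genes, or of a gene on different platforms, are not on a common scale.

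In none of the 10 genes did the control and H2O2 arrays overlap on either platform. Over all genes, 35.5% had both H2O2 arrays above both control arrays on Sp_TMA and 31.4% on Sp_EMA, and 44.7% and 51.2% had them below. Since the arrays did not overlap, the direction of each of the 10 genes was by necessity the same in cultures 1 and 2 on each platform. In order of the change on Sp_TMA, atg4 stood first, followed by atg13, isp6, atg3, atg8, atg7, atg9, atg1, atg5 and atg12. On Sp_EMA the order was atg4, atg13, atg3, isp6, atg1, atg7, atg9, atg8, atg5 and atg12. The 95% intervals of neighbours in these orders overlapped on both platforms, except those of atg5 and atg12, which lay on either side of 0. Genes were not tested against each other, so whether atg4 rose more than atg13 was not tested. The interval of atg4 on Sp_TMA (1.11 to 1.49) lay above that of atg8 (0.55 to 1.03) and of the 5 genes after atg8.

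**Figure D2:**
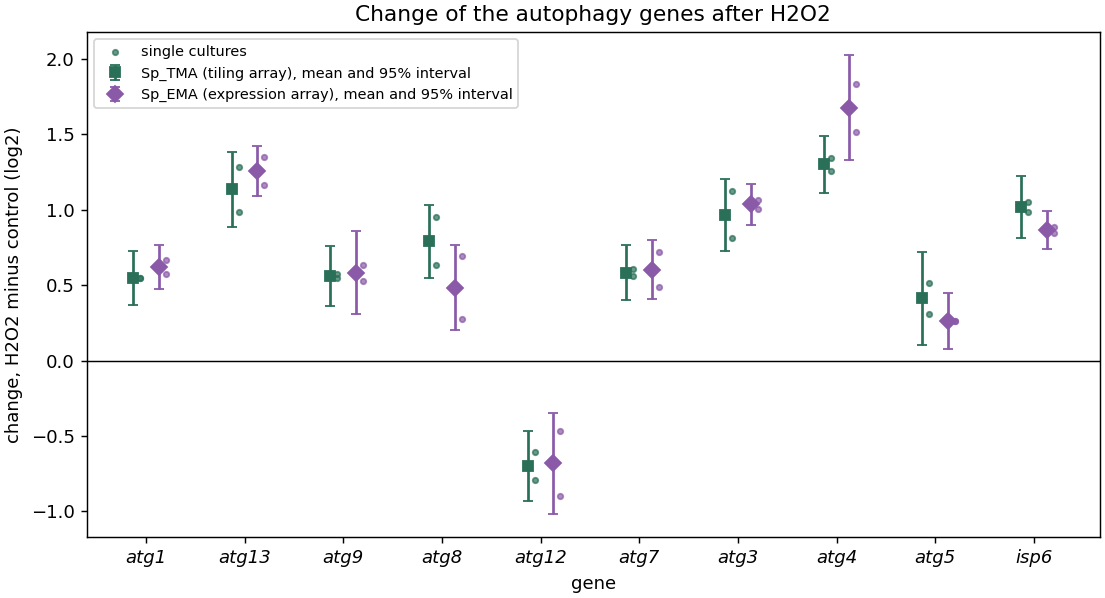
Change (H2O2 minus control, log2) of each autophagy gene on Sp_TMA (green squares) and Sp_EMA (purple diamonds), with the 95% interval from limma and small points for the single cultures, n = 2 per group. All intervals exclude 0, and atg12 alone lies below it, at -0.70 and -0.68.

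Of the genes of initiation, atg1 and atg13 rose, atg13 more than atg1. Of those described with the other genes of the pathway, atg101 rose as well, by 1.39 on Sp_TMA and 1.60 on Sp_EMA. The genes atg11 and atg17 were not called higher on either platform. The gene atg1 (SPCC63.08c), at 849833 to 852682 of chromosome III (ASM294v3, reverse), encodes the serine/threonine kinase that starts autophagy. On Sp_TMA it read 10.19 and 10.17 (log2) in control cells of cultures 1 and 2, and 10.74 and 10.72 in H2O2. Its cultures differed by less than 0.02 in each group there, and the change of 0.55 (standard error SE 0.07, adjusted p = 0.0012) corresponds to 1.46-fold. Its Sp_EMA values were 10.21 and 10.21 in control cells and 10.88 and 10.78 in H2O2, a change of 0.62 (SE 0.06, adjusted p = 6.4e-04). The end of thg1, a tRNA-modifying gene of the other strand, overlaps 54 bp of atg1 outside its coding sequence, and thg1 moved the opposite way, by -1.42 and -2.26 on Sp_TMA and Sp_EMA.

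The regulatory subunit gene atg13 (SPAC4F10.07c) lies at 4840485 to 4843603 of chromosome I (ASM294v3, reverse) and has 3 coding exons with 2277 bp in all. On Sp_TMA it went from 10.01 and 9.96 in control cells to 10.99 and 11.24 in H2O2, a rise of 1.14 (SE 0.10, adjusted p = 2.6e-04), 2.20-fold with a 95% interval of 1.85 to 2.61. On Sp_EMA it went from 9.64 and 9.54 to 10.80 and 10.90, a rise of 1.26 (SE 0.06, adjusted p = 1.2e-04), 2.39-fold. The rise was larger in culture 2 than in culture 1 on both platforms (1.29 and 0.99 on Sp_TMA, 1.35 and 1.16 on Sp_EMA). The intervals of atg13 (0.89 to 1.38 on Sp_TMA, 1.09 to 1.42 on Sp_EMA) lay above those of atg1 (0.37 to 0.72 and 0.48 to 0.77). The coding gene bud22 on the other strand overlaps atg13 by 30 bp outside its coding sequence and changed by -0.73 on Sp_TMA and -0.88 on Sp_EMA, opposite to atg13.

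The gene atg9 (SPBC15D4.07c), at 3023343 to 3025771 of chromosome II (ASM294v3, reverse), encodes the membrane protein of the vesicles from which autophagosomes start. It has a single coding exon of 2109 bp and is the only 1 of the 10 genes with no annotated gene overlapping it on the other strand. On Sp_TMA it read 9.35 and 9.46 in control cells and 9.93 and 10.00 in H2O2. Its rise of 0.56 (SE 0.08, adjusted p = 0.0016) is 1.48-fold. On Sp_EMA control cells of culture 2 (9.85) stood above those of culture 1 (9.59), and H2O2 cells read 10.22 and 10.38. The rise there was 0.58 (SE 0.11, adjusted p = 0.0071), with an adjusted p = 0.0502 without H2O2 array 2, where it was 0.50.

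The genes of the ubiquitin-like proteins moved in opposite directions, atg8 up and atg12 down. Atg8 is joined to phosphatidylethanolamine and coats the growing membrane, where it also binds cargo receptors. Its gene (SPBP8B7.24c) lies at 3684281 to 3685370 of chromosome II (ASM294v3, reverse) and has 3 coding exons with 366 bp in all. On Sp_TMA atg8 read 9.67 and 9.77 in control cells and 10.62 and 10.40 in H2O2, a rise of 0.79 (SE 0.10, adjusted p = 9.6e-04), 1.73-fold. On Sp_EMA it read 9.90 and 10.03 in control cells and 10.59 and 10.30 in H2O2, a rise of 0.48 (SE 0.11, adjusted p = 0.0150), 1.40-fold. The rise was larger in culture 1 than in culture 2 on both platforms (0.95 and 0.63 on Sp_TMA, 0.69 and 0.27 on Sp_EMA). Without control array 1 of Sp_EMA it was 0.42, with an adjusted p = 0.0552.

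Atg12 is joined to Atg5, and the product helps to place Atg8 on the membrane. The gene atg12 (SPAC1783.06c), at 2199327 to 2200120 of chromosome I (ASM294v3, reverse), has 3 coding exons with 399 bp in all. On Sp_TMA it read 6.24 and 6.03 in control cells and 5.45 and 5.43 in H2O2, where the lowest value of any gene was between 4.02 and 4.17 on each array. Its change was -0.70 (SE 0.09, adjusted p = 0.0013), 1.62-fold lower. Sp_EMA gave 8.87 and 9.25 in control cells and 8.40 and 8.35 in H2O2, a change of -0.68 (SE 0.13, adjusted p = 0.0080), 1.60-fold lower. Without H2O2 array 2 of Sp_EMA the change was -0.66 with an adjusted p = 0.0543. The cultures differed more in control cells than in H2O2 on both platforms (SD 0.15 and 0.02 on Sp_TMA, 0.27 and 0.04 on Sp_EMA).

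The whole coding sequence of atg12 lies under the long non-coding RNA gene SPNCRNA.804 of the other strand, and 24 bp of it under hrp1, a chromatin remodelling gene. The level of SPNCRNA.804 was not analysed here. The gene hrp1 changed by -0.62 on Sp_TMA (adjusted p = 0.0013 from limma) and by -0.17 on Sp_EMA (adjusted p = 0.134), and its part in the value of atg12 on Sp_EMA was not tested. The change of atg12 on Sp_TMA, which reads its own strand, was -0.70, and a part of SPNCRNA.804 in the Sp_EMA value was not tested. The coding sequence of atg8 likewise lies whole under a non-coding RNA gene of the other strand, SPNCRNA.6234, which was not analysed here either. Non-coding RNA genes of the other strand cover part of the coding sequence of atg1 (219 bp), atg13 (787 bp), atg3 (59 bp), atg4 (242 bp), atg5 (358 and 212 bp) and isp6 (266 and 146 bp) as well, and their part in the Sp_EMA values was not tested. The coding genes rnf10, hot15 and prp39 of the other strand overlap atg8 (132 bp), atg3 (65 bp) and atg5 (75 bp) outside the coding sequence of the latter. On Sp_TMA and Sp_EMA rnf10 rose, as atg8 did, by 0.49 and 0.22, and passed the threshold on both. The changes of hot15 (-0.18 and -0.26, called on Sp_EMA alone) and prp39 (-0.29 and -0.13, called on Sp_TMA alone) were opposite to those of atg3 and atg5. The part of these coding genes in the Sp_EMA values was not tested. The 250 bases before atg12 hold the end of pap1, the gene of a transcription factor of the peroxide response, which is transcribed in the same direction.

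Of the enzyme genes that attach and release the ubiquitin-like proteins, atg3, atg4 and atg7 rose, atg4 most, while atg10, whose product joins Atg12 to Atg5, did not pass the test, at 0.01 (limma, adjusted p = 0.927) and 0.04 (adjusted p = 0.752) on Sp_TMA and Sp_EMA. Atg4 is the cysteine protease that trims newly made Atg8 and frees it again from the lipid. Its gene (SPAC19B12.08) lies at 4898020 to 4900012 of chromosome I (ASM294v3, forward) and has 2 coding exons with 963 bp in all. On Sp_TMA atg4 read 9.49 and 9.58 in control cells and 10.83 and 10.84 in H2O2. That is a rise of 1.30 (SE 0.08, adjusted p = 5.7e-05), 2.46-fold with a 95% interval of 2.16 to 2.81, and 201 of the 4854 genes had a larger one. On Sp_EMA it read 7.25 and 7.65 in control cells, the furthest apart (SD 0.28) of the 10 genes there, and 9.09 and 9.16 in H2O2. The rise there was 1.68 (SE 0.14, adjusted p = 4.5e-04), 3.20-fold with an interval of 2.51 to 4.07, and 119 genes had a larger one.

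Atg7 is the E1-like enzyme that activates both Atg8 and Atg12, and Atg3 is the E2-like enzyme that passes Atg8 to the lipid. The gene atg3 (SPBC3B9.06c), at 3998467 to 3999709 of chromosome II (ASM294v3, reverse), read 8.85 and 9.07 in control cells and 9.98 and 9.88 in H2O2 on Sp_TMA, and 8.56 and 8.55, and 9.63 and 9.56, on Sp_EMA. Its rise was 0.97 on the former (SE 0.10, adjusted p = 4.2e-04) and 1.04 on the latter (SE 0.05, adjusted p = 1.2e-04), near 2-fold on both (1.95 and 2.05). Control cultures of atg3 lay further apart on Sp_TMA (SD 0.15) than on Sp_EMA (SD 0.01).

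The gene atg7 (SPBC6B1.05c) lies at 2634227 to 2636608 of chromosome II (ASM294v3, reverse), with 7 coding exons. It read 8.56 and 8.63 in control cells and 9.16 and 9.19 in H2O2 on Sp_TMA, a rise of 0.58 (SE 0.08, adjusted p = 0.0011). Sp_EMA gave 8.71 and 8.90 in control cells and 9.44 and 9.38 in H2O2, a rise of 0.60 (SE 0.08, adjusted p = 0.0020). The annotated transcript of mde4, a kinetochore gene on the other strand, covers 1409 bp of the 1950 bp of atg7 coding sequence, while the coding sequences do not overlap. The change of mde4 did not pass the threshold, at 0.13 (adjusted p = 0.205) on Sp_TMA and 0.06 (adjusted p = 0.389) on Sp_EMA.

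The gene atg5 (SPBC4B4.10c), at 3432104 to 3433248 of chromosome II (ASM294v3, reverse), encodes the protein to which Atg12 is joined, and had the smallest rise of the 9. On Sp_TMA it read 10.02 and 10.36 in control cells and 10.53 and 10.67 in H2O2, so that the control cultures lay further apart (SD 0.24) than those of any other of the 10 genes there. Its rise was 0.41 (SE 0.13, adjusted p = 0.0314) on Sp_TMA. On Sp_EMA it read 11.25 and 11.38 in control cells and 11.52 and 11.64 in H2O2, a rise of 0.26 (SE 0.07, adjusted p = 0.0274), and the cultures gave 0.27 and 0.26. The call of atg5 was often lost with an array left out, which also leaves fewer degrees of freedom. Whether the call rests on single arrays cannot be told from these fits. On Sp_TMA it was lost without control array 1 (0.24, adjusted p = 0.153), H2O2 array 1 (0.48, adjusted p = 0.0728) or H2O2 array 2 (0.35, adjusted p = 0.151), and on Sp_EMA without control array 1 (0.20, adjusted p = 0.0905), H2O2 array 1 (0.32, adjusted p = 0.0526) or H2O2 array 2 (0.20, adjusted p = 0.148).

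The vacuolar serine protease gene isp6 (SPAC4A8.04), also called prb1, lies at 2544842 to 2546981 of chromosome I (ASM294v3, forward), with a single coding exon of 1404 bp. Its product degrades the content of autophagosomes in the vacuole. On Sp_TMA isp6 read 12.14 and 12.27 in control cells and 13.19 and 13.26 in H2O2, a rise of 1.02 (SE 0.08, adjusted p = 1.9e-04), 2.02-fold with an interval of 1.76 to 2.33. On Sp_EMA it read 11.72 and 11.76 in control cells and 12.61 and 12.60 in H2O2, a rise of 0.87 (SE 0.05, adjusted p = 1.6e-04), 1.82-fold. The cultures gave similar rises on each platform, 1.05 and 0.98 on Sp_TMA and 0.89 and 0.85 on Sp_EMA.

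Whether a gene changed unequally on the platforms was tested by subtracting its Sp_EMA change from its Sp_TMA change in each culture and comparing the result with 0 (limma), and 13.7% of all genes passed an adjusted p below 0.05. Of the 10 genes atg4 passed, with a change smaller on Sp_TMA by a log2 difference of -0.38 (SE 0.11, 95% interval -0.60 to -0.15, adjusted p = 0.0243). In culture 1 the difference was -0.49 and in culture 2 it was -0.26. With no replicate block, in a single fit over the 8 arrays, the adjusted p = 0.255 and the call was lost. The next was atg8, with 0.31 (0.09 to 0.53, adjusted p = 0.0549). For the other 8 genes the difference lay between -0.12 and 0.15 with adjusted p-values from 0.354 to 0.942. The widest of their intervals, that of atg12, ran from -0.28 to 0.25.

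**Figure D3:**
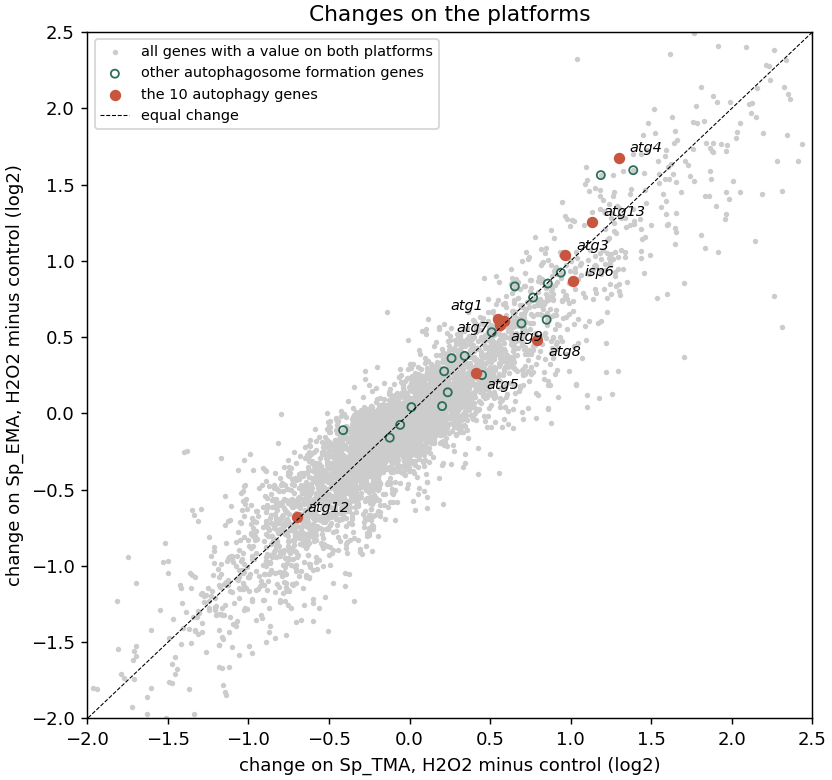
Change (H2O2 minus control, log2) on Sp_TMA (horizontal axis) and on Sp_EMA (vertical axis) for the 10 autophagy genes (red), the 19 other autophagosome formation genes (green circles) and all genes (grey, with 88 outside the axes), and a dashed line of equal change. The gene atg4 lies above the line (1.30 and 1.68), atg8 below it (0.79 and 0.48), and atg12 is on the line at the lower left.

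Other genes of the pathway were taken from lists of general knowledge, also with earlier results of these data known, and 64 of their 70 genes had a value. On Sp_TMA 30 of the 64 rose and 4 fell, against 23 and 3 on Sp_EMA, where over all genes 25.2% rose and 31.3% fell on Sp_TMA, and 22.7% and 36.2% on Sp_EMA. The 23 genes that rose on Sp_EMA rose on Sp_TMA as well, and no gene fell on both. The median change was 0.23 on Sp_TMA and 0.09 on Sp_EMA, beside -0.05 and -0.07 over all genes. Without control array 1 the number that rose on Sp_TMA was 19. The falls on Sp_TMA numbered 2 when the culture entered as a replicate block. Most falls were no longer called with an array left out, which also leaves fewer degrees of freedom. Whether they rest on single arrays cannot be told from these fits.

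Among 6 other genes of initiation and conjugation, 2, atg101 and atg16, rose on both platforms, as did 19.8% of all genes. The gene atg101, of the Atg1 kinase complex, rose by 1.39 (SE 0.09, adjusted p = 8.1e-05 from limma) and 1.60 (SE 0.09, adjusted p = 1.8e-04) on Sp_TMA and Sp_EMA. The gene atg16, whose product binds the conjugate of Atg12 and Atg5, rose by 0.85 and 0.61. The scaffold gene atg11 fell on Sp_TMA (-0.41) and had -0.11 on Sp_EMA (adjusted p = 0.179), and atg2, atg10 and atg17 passed the test on neither, with changes from -0.07 to 0.20.

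Of 13 measured genes of a list that holds the phosphatidylinositol 3-kinase complex, the PROPPINs that bind its lipid, related sorting nexins and ctl1, of a choline transporter family, 10 rose on Sp_TMA and 9 on Sp_EMA, beside 25.2% and 22.7% of all genes. None of the 13 fell, while 31.3% and 36.2% of all genes did. Their medians were 0.51 and 0.53. The PROPPIN gene atg1803 rose by 1.19 and 1.56, atg2402 by 0.94 and 0.92, and atg14, the subunit that directs the kinase to autophagy, by 0.86 and 0.85. The beclin family gene atg6 rose by 0.77 and 0.76 and the kinase gene vps34 by 0.34 and 0.38. The PROPPIN gene atg1802 had -0.12 and -0.16 and passed the test on neither platform.

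Of 9 measured genes of selective autophagy and its cargo, 6 rose on Sp_TMA, beside 25.2% of all genes, and 3 on Sp_EMA, near the 22.7% of all genes there. The cargo receptor gene nbr1 fell on Sp_EMA (-0.19, and -0.01 on Sp_TMA). The vacuolar mannosidase gene ams1 rose by 0.75 and 0.59, the aminopeptidase gene ape4 by 0.52 and 0.25 and lap2 by 0.35 and 0.33. Of 5 genes of vacuolar degradation 2 rose on both platforms, beside 19.8% of all genes. The serine protease gene psp3 rose by 0.68 and 0.43 and the amino acid transporter atg22 by 0.49 and 0.53. The genes of carboxypeptidase Y (cpy1, 0.10 and 0.10), the lipase Atg15 (-0.23 and -0.13) and the sorting receptor Vps10 (-0.02 and 0.09) did not pass the test.

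Of 10 measured genes of vacuole fusion, 6 rose on Sp_TMA and 5 on Sp_EMA, beside 25.2% and 22.7% of all genes. The membrane fusion SNARE genes fsv1 (1.22 and 1.14) and vam7 (0.85 and 0.76) rose, and the GTPase gene ypt7 by 0.55 and 0.46. The vacuolar proton ATPase acidifies the vacuole. Of its 13 measured subunit genes 2 rose and none fell on Sp_TMA (median 0.10), none rose and 2 fell on Sp_EMA (median -0.03), and the calls were of vma5 and vma6, and of vma7 and vma16. Both shares lie below those of all genes, 25.2% higher on Sp_TMA and 36.2% lower on Sp_EMA.

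Of 8 genes of nutrient signalling to Atg1, 2 rose on both platforms, beside 19.8% of all genes. Of these, gcn2, the kinase that senses amino acid shortage, rose by 0.86 and 0.75, and ssp2, the catalytic subunit of AMP-activated kinase, by 0.39 and 0.42. The TORC1 kinase gene tor2 (-0.29), its partner mip1 (-0.26) and tsc2 (-0.26) fell on Sp_TMA, 3 of 8 beside 31.3% of all genes, and had 0.005, -0.005 and -0.08 on Sp_EMA, where none of the 3 passed the test.

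**Figure D4:**
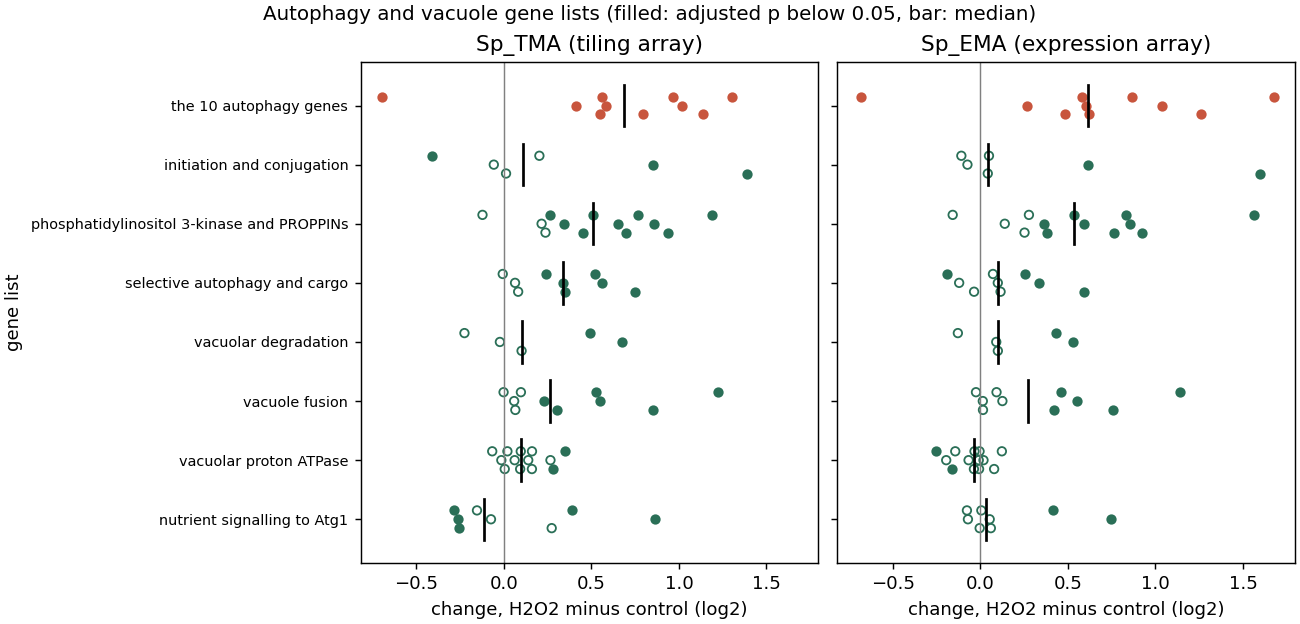
Change (H2O2 minus control, log2) of each gene of the autophagy and vacuole lists on Sp_TMA (left) and Sp_EMA (right), filled where the adjusted p from limma is below 0.05, with a bar at the median. The 10 autophagy genes have medians of 0.69 and 0.61, the phosphatidylinositol 3-kinase and PROPPIN list 0.51 and 0.53, and the vacuolar proton ATPase 0.10 and -0.03.

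The genes most like atg4 and atg12 were sought by the Euclidean distance over 4 changes, those of 2 cultures on 2 platforms, among all genes other than the 10. Of the 5 nearest to atg4, 2 were autophagy genes, atg101 at a distance of 0.22 (log2) and atg1803 at 0.24. The others were SPAC212.04c, an uncharacterized protein gene (0.20), fhn1, of eisosome assembly (0.22), and SPCC594.04c, of the steroid oxidoreductase superfamily (0.27). The 5 nearest to atg12 were erf4, a palmitoyltransferase subunit (0.17), eta2, an RNA polymerase I termination factor (0.20), pfl9, a cell surface glycoprotein (0.20), trm11, a tRNA methyltransferase subunit (0.21), and dpe2, a dipeptidyl peptidase (0.21). By this choice their changes on Sp_TMA lay near that of atg12, between -0.76 and -0.59.

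The arrays of a group were close, with Pearson's r across genes from 0.997 to 0.998 and median SDs between cultures from 0.04 to 0.07 (log2). Known peroxide-induced genes bore out the treatment label, with rises of the catalase gene ctt1 by 3.19 and 2.99 and of the phosphatase gene pyp2 by 4.27 and 5.02 on Sp_TMA and Sp_EMA. Marker genes of both mating types had values, and since levels of different genes cannot be set against each other on these arrays, the h- label was not checked. In control cells 7 of the 10 autophagy genes were higher in culture 2 than in culture 1 on Sp_TMA and 8 on Sp_EMA, and in H2O2 6 and 4 were.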

How the data were processed

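RNA of 2 wild-type cultures, before and 30 minutes after 0.5 mM H2O2, was measured on 2 platforms, 8 arrays in all. The authors kept probes that are unique and match the genome once, within annotated exons or ORFs, grouped them by gene with the custom CDFs Sp_TMA and Sp_EMA, and deposited log2 values made with RMA (background adjustment, quantile normalization between the arrays of a platform, and median polish). RMA makes the arrays of a platform alike in distribution, so changes are relative to the other genes. The deposited log2 values were used as given. The probe sets follow a Sanger Centre genome annotation release, and the version of the RMA software is not given in the sources used here. Both tables hold the same 4854 genes, of which 4845 were matched by systematic name to ASM294v3 for places, products and promoters, which may differ from the annotation behind the probes.

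Within each platform the 4 arrays were fitted by group in R 4.3.3 using limma 3.58.1 (linear fit with eBayes, two-sided, Benjamini-Hochberg over 4854 genes, threshold 0.05). With 2 arrays against 2 limma draws on the other genes for 4.22 (Sp_TMA) and 3.03 (Sp_EMA) degrees of freedom beside the 2 of a gene. For single genes, exact permutation could reach p = 0.333 at best, so none is given. The platform difference rests on 1 value per culture, with 18.4 degrees of freedom from the other genes. Replicate numbers name cultures, each sampled before and after H2O2. As a check, the culture 2 minus culture 1 differences of the 2 groups were set against each other over all genes, with r = -0.06 for Sp_TMA and 0.25 for Sp_EMA. Python 3.11.15, pandas 2.3.3, numpy 2.4.6 and matplotlib 3.10.9 were used for tables and plots. The steps were tested on simulated data.

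The 10 genes and the 7 other lists were chosen with earlier results of these data known. Named genes are the 10, up to 3 of each other list, ranked by their Sp_TMA change among genes called the same way on both platforms, the 5 nearest to atg4 and to atg12, and ctt1, srx1, pyp2 and gpx1 as a check. The rises of srx1 (3.46 and 2.29) and gpx1 (1.59 and 1.31) on Sp_TMA and Sp_EMA were checks only. Other list members and neighbours on the other strand were named after their values were seen. Alternatives were an intensity trend, the culture as a block, centred arrays, quantile normalization of the gene values, a filter on the dimmest 25%, a stricter threshold of 0.01, all rows of a platform and leaving out each array. The number of arrays limits the precision.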

Additional observations from a re-analysis of the deposited data

Results flagged for a closer look

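The rise of atg4 in H2O2 was smaller on Sp_TMA (1.30) than on Sp_EMA (1.68). The log2 difference was -0.38 (adjusted p = 0.0243 from limma), in the same direction in 2 of 2 cultures. Of all genes, 13.7% passed this test. The platforms read RNA of the same cultures with different probes and targets, and the call was lost with no replicate block (adjusted p = 0.255) and at a threshold of 0.01. In control cells atg4 stood at 7.25 and 7.65 on Sp_EMA, where the lowest value of any gene was 5.04 and 5.10 on those arrays.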

How the results depend on the processing

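The setting of all rows repeats the main fit, as both tables hold the same 4854 genes. The stricter threshold, intensity trend, replicate block and filter leave a change as it was and cannot alter its direction. Leaving out an array cannot reverse the direction of the 10 autophagy genes either, since their control and H2O2 arrays did not overlap. Only centred arrays and quantile normalization test the direction. Under each of these settings the change nearest to no change, that of atg5 on Sp_EMA, was 0.27. Over the alternatives, the 10 autophagy genes gave 214 changes on single platforms. All kept their direction, 202 kept their side of the threshold and 12 no longer passed it. Those 12 were of atg5 on both platforms, and of atg8, atg9 and atg12 on Sp_EMA.

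Leaving out each array in turn gave 8 to 9 genes that rose on Sp_TMA and 7 to 9 on Sp_EMA, and 1 and 0 to 1 that fell. With the dimmest 25% of genes left out, atg12 was not tested, so 0 of 8 and 0 of 6 genes fell. The culture as a replicate block left 9 that rose and 1 that fell on both platforms. At a threshold of 0.01 the rises numbered 8 on Sp_TMA and 7 on Sp_EMA. Of the platform differences, 0 passed at 0.01 and 0 with no replicate block (atg4 adjusted p = 0.255), and 2, atg4 and atg8, passed with an intensity trend.

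Of the 64 other genes, those that rose on Sp_TMA numbered 19 at 0.01 and 19 to 26 without an array, and those that fell 1 at 0.01, 2 with the replicate block and 1 without any array. On Sp_EMA 14 of 47 rose with the dimmest genes left out, 0 fell at 0.01, 5 fell with an intensity trend and 5 with quantile normalization, and 0 to 4 fell without an array. The replicate block changed no other count by over 1.5 times. A difference for a single culture has no test. The causes were not tested, apart from the genes that a filter removes. With 2 arrays a group, changes near 0.2 are at the limit of the test.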
